A study of Mus musculus with 111 samples.

Results

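The U3 small nucleolar RNA of the mouse was followed through 6 tissues and 4 diets. Its members were the rows of a read-count table whose name starts with Rnu3. There were 5 of them among 1268 rows, named Rnu3a, Rnu3b1, Rnu3b2, Rnu3b3 and Rnu3b4. Small RNA from sperm of the cauda epididymis, cauda epididymis, caput epididymis, testis, heart and liver had been made into OTTR-seq libraries, a method whose reverse transcriptase joins the adapters during copying of the RNA. Mice had received 1 of 4 diets for 6 months. The low-protein diet (LP) held 10% protein, with sucrose in place of the missing protein, and its control diet (C) held 18%. The high-fat diet (HF) drew 60% of its calories from fat, and its own control diet (CHF) drew 7.2%. The labels name no mutation and no other treatment in any group, and they state neither strain nor age. The 111 libraries fell into 24 groups, with 4 or 5 libraries for each tissue on each diet. The labels do not say whether each library came from its own mouse, so p-values measure the spread between libraries, which may be partly technical.

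U3 is a box C/D small nucleolar RNA (snoRNA) found in all eukaryotes. Most box C/D snoRNAs guide methylation of ribosomal RNA, whereas U3 pairs with the ribosomal RNA precursor and is needed for the early cuts that free the RNA of the small ribosomal subunit. It carries the trimethylated cap that is also found on spliceosomal RNAs. Mature spermatozoa are regarded as largely silent in transcription.

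The sequences of Rnu3a and Rnu3b1 are printed because they show which rows can be told apart by reads. They are the transcripts of the GENCODE M21 annotation of build GRCm38 (mm10), on the plus strand at chr10:40258467-40258679 and chr11:87443237-87443451. Capitals mark bases that differ between both in a pairwise alignment.
Rnu3a: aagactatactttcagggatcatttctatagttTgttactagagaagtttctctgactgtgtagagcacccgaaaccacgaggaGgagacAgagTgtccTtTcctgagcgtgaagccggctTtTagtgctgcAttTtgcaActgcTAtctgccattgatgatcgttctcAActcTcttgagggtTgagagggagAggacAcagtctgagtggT
Rnu3b1: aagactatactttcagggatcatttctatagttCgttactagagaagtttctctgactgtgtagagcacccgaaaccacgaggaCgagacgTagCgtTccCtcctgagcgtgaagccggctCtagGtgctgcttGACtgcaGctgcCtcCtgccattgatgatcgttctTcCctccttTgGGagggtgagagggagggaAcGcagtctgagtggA

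Rnu3a is 213 bases long and Rnu3b1 215 bases, and 86.2% of the columns of their alignment were identical. The first 33 bases are the same in both, and the first difference is T34C, with Rnu3a's base first and positions counted from 1 at the 5′ end of Rnu3a. In all, there were 11 substitutions and 20 columns with a gap, and the longest identical stretch was 50 bases. A read from within an identical stretch can be counted for both copies, and how many reads do so was not tested. The box C motif TGATGA, searched on the transcript strand, begins at base 156 of Rnu3a and at base 157 of Rnu3b1, and 44.1% of 229 other snoRNA transcripts hold it.

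The other 3 rows, Rnu3b2 (chr11:87471368-87471582), Rnu3b3 (chr11:87448627-87448841) and Rnu3b4 (chr11:87462286-87462500), have the same sequence as Rnu3b1 and lie beside it on chromosome 11. Their counts were almost the same as well. Rnu3b1 had 25368 counts over all libraries, Rnu3b4 25360, Rnu3b2 25358 and Rnu3b3 25352. In no library did any of the 3 differ from Rnu3b1 by more than 6 counts, and their summed differences were between 0.237% and 0.252% of its total. The 4 rows were therefore treated as 1 feature, called Rnu3b1 below, and Rnu3a, with 6370 counts, as another. Which of the 4 identical genes was transcribed cannot be told from these counts. Of 3 further table entries that resemble U3 but carry other names, Gm23927 had 42 counts, Gm24826 30 and Gm24949 14, and none was a member.

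All counts of all 5 U3 rows were even numbers in all 111 libraries. The annotation lists each U3 gene as 2 records at the same place. Among 229 snoRNA entries with at least 50 counts, all 12 with 2 such records, the 5 U3 rows included, had only even counts, and none of the 216 with 1 record did. A count of 2 may therefore stand for 1 read, in which case levels and shares of U3 as deposited are 2 times too high. Shares among snoRNAs are given as deposited and, for the main ones, also with the counts of such entries halved.

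Library depth, as counts over the 1042 features left after rows that list the same reads were collapsed, ran from 827 to 1467880 with a median of 59904. Only 3 libraries had under 5000 counts, 2 of caput on LP and 1 of liver on HF. piRNA precursors, which mark the germ line, had counts in 276 of 276 entries in testis (0.417 to 15.4% of a library), 239 in sperm (0.227 to 1.62%), 212 in cauda (0.0786 to 0.856%), 68 in caput (0 to 0.0741%), 72 in heart (0.000136 to 0.0353%) and 108 in liver (0 to 0.128%). Mitochondrial tRNAs took 36.7 to 87.3% of heart counts and 11.6 to 78% of liver counts, against 3.55 to 52.4% in the other tissues. MicroRNA genes that mark liver, heart and blood, such as Mir122, Mir1a-1 and Mir451a, were not analysed here, so the liver and heart labels were not checked against them.

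Rnu3b1 was far more abundant in sperm than in any other tissue, and second in cauda epididymis. In counts per 1000000 counts of the library (CPM), Rnu3b1 lay between 4229 and 62968 CPM in the 19 sperm libraries, with a median of 21444. In the 18 cauda libraries it lay between 241.9 and 7725 CPM, with a median of 1803. All 19 sperm libraries were above the median cauda library, and the ranges of both tissues overlapped. Sperm held 75.5% of all Rnu3b1 counts of the study but only 3.89% of the counts of all features.

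Levels in the other 4 tissues were lower still. Rnu3b1 had 164.3 to 2177 CPM in testis (median 646.3, n = 19), 0 to 666.1 CPM in liver (median 177.9, n = 17), 0 to 370.3 CPM in caput (median 186.4, n = 19) and 0 to 464 CPM in heart (median 55.3, n = 19). None of these libraries reached the lowest sperm library. Rnu3b1 was at 0 in 4 caput, 1 heart and 1 liver library, and 3 of these 6 were the libraries with under 5000 counts, in which 3 counts would be 1275 to 3628 CPM. If U3 reads were counted doubly, these limits are too low. In bulk tissue, fewer cells that hold U3 and less U3 per cell cannot be told apart.

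**Figure D1:**
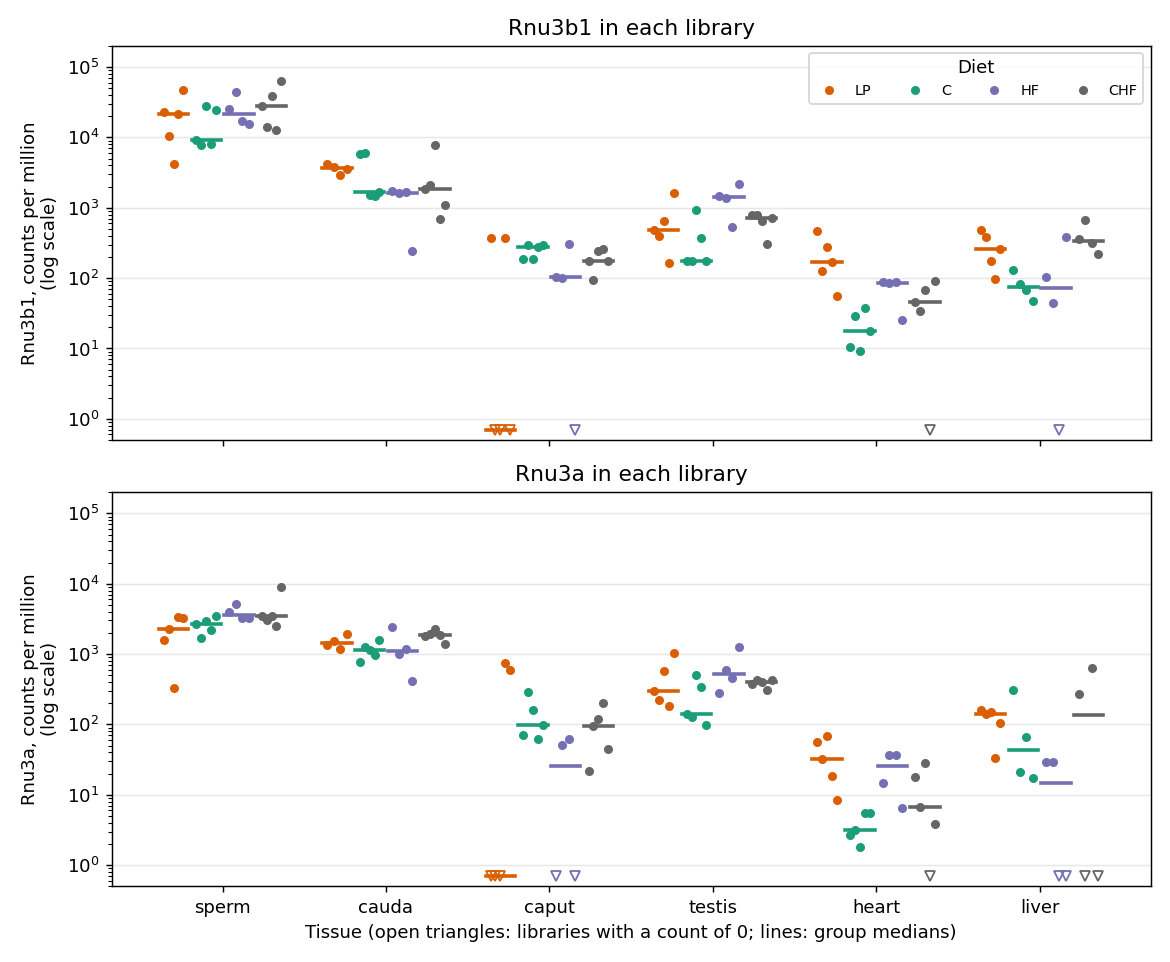
Rnu3b1 (top) and Rnu3a (bottom) in CPM of each library, on a log axis, by tissue and diet (LP, C, HF, CHF); points are libraries, lines are group medians, and open triangles are libraries with a count of 0. All sperm libraries of Rnu3b1 lie at 4229 CPM or more, and among the other tissues only cauda libraries reach above that.

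Tissue pairs were tested with edgeR's quasi-likelihood test in 1 fit over all libraries with diet as a covariate, scaled by trimmed mean of M values (TMM). Calls needed an adjusted p under 0.05 together with a log2 fold change of 1 or more in size. Rnu3b1 was higher in sperm than in each of the other 5 tissues. The log2 fold change was 2.86 ± 0.40 (SE) against cauda (7.26-fold), 5.95 ± 0.45 against testis, 5.96 ± 0.45 against heart, 6.25 ± 0.48 against liver and 6.76 ± 0.47 against caput, with adjusted p of 1.51e-09 or less in edgeR. The share of all 294 tested features called higher in sperm was 22.4% against cauda, 29.9% against testis, 39.1% against heart, 40.1% against liver and 45.6% against caput, so being called was common in these comparisons. By size of the fold change Rnu3b1 ranked 12th against cauda, 2nd against testis, 7th against heart, 6th against liver and 5th against caput among the 294 features.

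Cauda epididymis followed sperm. Rnu3b1 was higher in cauda than in testis by 3.09 ± 0.40 on the log2 scale, than in heart by 3.10 ± 0.41, than in liver by 3.39 ± 0.44 and than in caput by 3.90 ± 0.43. The features called higher in cauda made up 27.9%, 28.9%, 32% and 36.1% of those tested in the same 4 comparisons. The piRNA precursor share was higher in every cauda library (median 0.377%) than in any caput (median 0.0227%) or heart library (median 0.00314%), overlapped with liver (median 0.0181%), and was lower at the median than in testis (3.3%), the opposite order to U3. The part of these shares in the U3 differences was not tested.

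The remaining 6 pairs, among testis, heart, liver and caput, gave no call for Rnu3b1, with differences between -0.81 (caput minus testis, adjusted p = 0.0636 in edgeR) and 0.30 (testis minus liver). In these pairs 62.6% (caput against testis), 49.3% (caput against heart), 23.8% (caput against liver), 60.9% (testis against heart), 52.4% (testis against liver) and 33% (heart against liver) of features were called in either direction. Their order depended on the scaling. Rnu3b1 in testis minus heart was 0.01 ± 0.36 with TMM, 3.21 with total counts and -0.90 with other snoRNA counts as library size. The median of all features in that comparison was 0.54 with TMM and 3.68 with total counts.

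The scaling moved all features together, so Rnu3b1 was also set against the median of all features under 4 scalings (TMM, relative log expression or RLE, total counts, other snoRNA counts). On the log2 scale Rnu3b1 exceeded that median by 2.61 to 3.09 in sperm minus cauda, 6.17 to 6.74 in sperm minus testis, 5.35 to 5.79 in sperm minus heart, 5.78 to 6.34 in sperm minus liver and 5.75 to 6.36 in sperm minus caput. In cauda it exceeded the median by 3.25 to 3.62 against testis, 2.85 to 3.04 against heart, 3.09 to 3.42 against liver and 3.04 to 3.51 against caput. In the 6 other pairs it lay between -0.73 and 0.42. Of the features called, 50.4% were higher in sperm than in cauda with TMM and 86.9% with RLE. The same split was 39.5%, 26.5% (total counts) and 63.2% (other snoRNA counts) against testis, so there its direction turned. It was 54.5% and 86.2% (total counts) against heart, 54.4% and 76.2% (other snoRNA counts) against liver, and 59% and 79.8% (other snoRNA counts) against caput. For cauda it was 40.4%, 23.2% (RLE) and 64.4% (other snoRNA counts) against testis, which also turned, and 52.5% and 91% (total counts) against heart, 50.3% and 81.6% (other snoRNA counts) against liver, and 57% and 88.8% (other snoRNA counts) against caput. The 9 calls of Rnu3b1 that involve sperm or cauda were kept under each of the 12 alternative settings and with each replicate number left out in turn.

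Rnu3a showed the same order of tissue medians at lower levels. It had 325.3 to 9079 CPM in sperm (median 3234), 416.9 to 2420 CPM in cauda (median 1373), 98.3 to 1279 CPM in testis (median 369.5), 0 to 740.6 CPM in caput (median 62.1), 0 to 637 CPM in liver (median 32.8) and 0 to 68.5 CPM in heart (median 8.51). The cauda range lay within the sperm range. Rnu3a was higher in sperm than in cauda by 1.21 ± 0.34 on the log2 scale (2.32-fold, adjusted p = 0.00159 in edgeR). Without replicate 3 of each group it was 0.98, and with all table rows kept 0.93, both below the fold needed for a call.

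Rnu3a was also higher in sperm than in testis (3.88 ± 0.37), liver (4.50 ± 0.42), caput (4.54 ± 0.41) and heart (5.46 ± 0.41). In cauda it was higher than in testis (2.67 ± 0.35), liver (3.29 ± 0.40), caput (3.33 ± 0.39) and heart (4.25 ± 0.40). One further pair was called: Rnu3a was 1.58 ± 0.37 higher in testis than in heart, where 40.5% of features were called higher, and no testis library was as low as the highest heart library. With other snoRNA counts as library size that difference was 0.72, which is no call. Calls of Rnu3a among these lower 4 tissues depended on the processing. Caput minus heart (0.92, adjusted p = 0.0467 in edgeR) fell short of a call by its fold, and was called with RLE (1.97), total counts (3.15, adjusted p = 1.75e-10 in edgeR), DESeq2 (1.08), all table rows (1.43) and without the libraries under 5000 counts (1.42), and was -0.02 with other snoRNA counts as library size. Heart minus liver (-0.96, adjusted p = 0.045 in edgeR) fell short likewise, and was called under the same 5 settings (-1.76, -2.63, -1.03, -1.21 and -1.40). Testis minus liver (1.88 and 2.06) and caput minus testis (-1.67 and -1.55) were called with RLE and with total counts.

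The share of U3 among all snoRNA counts does not depend on a scaling factor. Rnu3b1 alone took 26 to 48.2% of the snoRNA counts of each sperm library (35.8 ± 7.29%, SD, n = 19). It took 1.09 to 25% in cauda (7.39 ± 6.98%, n = 18). All 19 sperm libraries were above all 18 cauda libraries. In the other tissues the mean share was 0.917% in heart, 0.415% in testis, 0.4% in liver and 0.259% in caput, and the highest single library, of heart, reached 4.14%. With the counts of doubly listed entries halved, the means were 24.1% in sperm and 4.45% in cauda. Rnu3a added 5.45 ± 1.76% in sperm and 3.34 ± 1.03% in cauda, against means of 0.147 to 0.259% elsewhere.

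**Figure D2:**
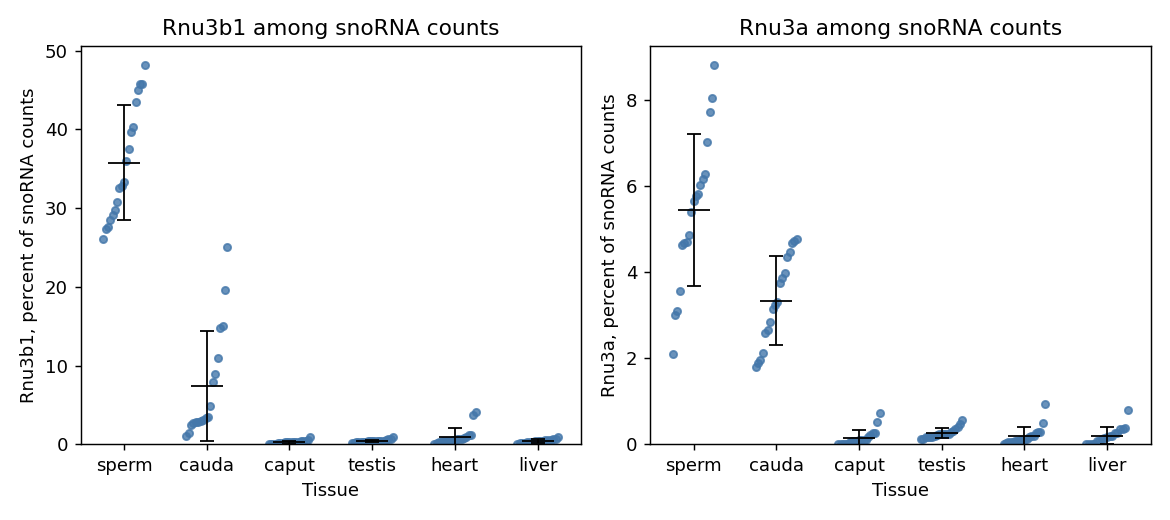
Rnu3b1 (left) and Rnu3a (right) as a percent of all snoRNA counts of each library as deposited, by tissue; points are libraries sorted by value, the dash is the mean and the bars are 1 SD. Rnu3b1 takes 26% or more in each sperm library and at most 25% in any cauda library.

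The log2 ratio of Rnu3b1 to all other snoRNA counts averaged -0.74 ± 0.47 in sperm, -4.16 ± 1.44 in cauda, -7.24 ± 1.19 in heart, -8.00 ± 0.76 in liver, -8.01 ± 0.63 in testis and -8.50 ± 1.39 in caput (SD). Sperm exceeded each other tissue by 3.42 to 7.77, and cauda exceeded the other 4 by 3.08 to 4.34. A two-sided permutation test with 100000 resamples gave p = 1e-05 for each of these 9 pairs, the smallest it can give, and 1.67e-05 after adjustment over 15 pairs. Among the lower 4 tissues, caput minus heart was -1.26 (adjusted p = 0.00586 by permutation) and testis minus heart -0.78 (adjusted p = 0.018 by permutation). Heart minus liver was 0.76 (adjusted p = 0.0362 by permutation), which became 0.68 with adjusted p = 0.0608 when doubly listed counts were halved. The other 3 pairs did not pass, with adjusted p of 0.203 or more by permutation.

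By its share, Rnu3b1 ranked 1st of 231 snoRNA features in sperm and 2nd in cauda, 34th in heart, 52nd in liver, 59th in testis and 67th in caput. Rnu3a ranked 3rd in both sperm and cauda. U3 is longer than most snoRNAs, so more fragments can come from it. Per base of annotated length and with doubly listed counts halved, Rnu3b1 was still 1st in sperm, with 11.7% of the length-scaled snoRNA level, but 14th in cauda with 1.96%, and Rnu3a was 12th in sperm and 34th in cauda.

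Rnu3b1 had the highest fold change of all 105 tested snoRNA features in each of the 5 comparisons of sperm with another tissue. Its lead was not always wide: against testis Snora69 had 5.85 ± 0.46 beside 5.95 ± 0.45 for Rnu3b1, and against heart 5.55 ± 0.51 beside 5.96 ± 0.45. Of the 103 others, 17 (16.5%) were called higher in sperm than in testis and 68 (66%) lower, with a median log2 fold change of -1.60. Against caput 20 (19.4%) were higher and 60 (58.3%) lower, with a median of -1.48. Against liver 19 (18.4%) were higher and 55 (53.4%) lower, with a median of -1.28. Against heart 24 (23.3%) were higher and 42 (40.8%) lower (median -0.50), and against cauda 12 (11.7%) were higher and 22 (21.4%) lower (median -0.29). Among all features, 45.6% were called higher against caput, 40.1% against liver, 39.1% against heart and 22.4% against cauda. Called in either direction were 77.2%, 73.8%, 71.8% and 44.6% in the same order. With RLE the median of the other snoRNAs was 0.10 against liver, 0.75 against cauda and 1.69 against heart, so its direction in those pairs depended on the scaling, whereas against testis and caput it was below 0 under all 4 scalings. That held only for snoRNAs that passed the filter on low counts: without the filter the median of 229 other snoRNAs was 0.01 against testis, 0.41 against caput, 0.35 against liver, 0.91 against heart and 0.30 against cauda. In cauda minus caput 16 of the 103 (15.5%) were higher and 62 (60.2%) lower. There 36.1% of all features were called higher and 63.3% in either direction. The kinds of snoRNA differed in sperm minus testis, where 29.9% of all features were called higher and 45.9% lower. Of 49 named box C/D snoRNAs 3 were higher and 40 lower (median -2.12). Of 9 named H/ACA and Cajal body RNAs 5 were higher and 2 lower (median 1.18). These are ranks and counts, and U3 was not tested against the group.

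**Figure D3:**
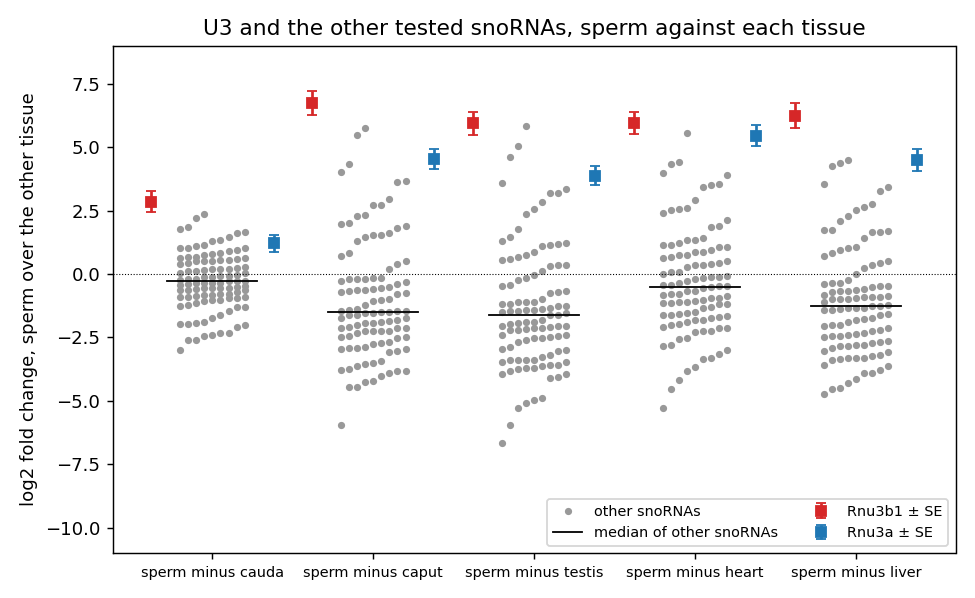
Log2 fold change of sperm over each other tissue from the edgeR fit, for 103 other snoRNAs (grey points, black line at their median), Rnu3b1 (red) and Rnu3a (blue), with bars of 1 SE on the U3 features. Rnu3b1 lies above all grey points in each of the 5 comparisons.

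The 5 most abundant other snoRNAs, none of them called higher in sperm than in testis, were Snord80, Snord104, Gm24452, Snord32a and Snord100. Snord80, a box C/D snoRNA whose counts are also all even, averaged 5019 ± 4203 CPM in sperm and 28756 ± 23743 CPM in testis, and was lower in sperm by a log2 fold change of -1.60 ± 0.33. Snord104 (-3.39 ± 0.34) and Snord32a (-3.93 ± 0.36), which guide methylation of ribosomal RNA, were lower in sperm than in testis too. Snord100 (-0.74 ± 0.28) and Gm24452 (0.58 ± 0.30) were not called. Between sperm and cauda Gm24452 (1.60 ± 0.31) and Snord100 (1.35 ± 0.29) were higher in sperm, and Snord104 (-2.33 ± 0.34) and Snord32a (-1.89 ± 0.35) lower. Among all features 22.4% were called higher and 22.1% lower there, and 29.9% and 45.9% in sperm minus testis.

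RNAs that act beside U3 in ribosomal RNA maturation did not move as 1 group. Of 13 listed, 11 had counts and 7 were tested between tissues. Against testis, 3 were higher in sperm and 4 lower, with a median of -2.96 beside -0.52 over all features, of which 29.9% were called higher and 45.9% lower. Higher were Snord118 (U8, needed for maturation of the large subunit RNAs) by 2.37 ± 0.42, Rmrp (the RNA of RNase MRP, which cuts the precursor) by 2.24 ± 0.43, and Snora73b, a form of the U17 RNA, by 1.18 ± 0.39. Lower were Snord13 (-3.03 ± 0.44), which in human cells guides acetylation of the small subunit RNA, and 3 copies of U14, a box C/D snoRNA that like U3 is needed for the small subunit: Snord14a (-2.96 ± 0.41), Snord14d (-3.63 ± 0.49) and Snord14c (-4.06 ± 0.45). None of the 7 was called between sperm and cauda in edgeR (1 had an adjusted p under 0.05, Snora73b with -0.96 ± 0.39), where both U3 features were. In that comparison 22.4% of all features were called higher and 22.1% lower. In sperm minus testis all features together shifted by -0.65 at the median when total counts set the scale, and by 1.54 when other snoRNA counts did. A shift of -0.65 would take Snora73b below the fold needed for a call.

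RNAs with a cap like that of U3 were compared next. Of 9 listed rows, 8 features remained after collapsing and 4 were tested between tissues. Against testis 2 of the 4 were higher in sperm, Rnu11 (U11 of the minor spliceosome) by 3.77 ± 0.44 and Rnu1a1 (U1) by 3.24 ± 0.36, where 29.9% of all features were called higher and 45.9% lower. Rnu1b2 (0.71 ± 0.33) and Gm23971 (-0.27 ± 0.30), into which the U2 row Rnu2-10 was folded, did not reach the call. Between sperm and cauda Rnu1b2 was higher in sperm by 1.24 ± 0.35, while Rnu1a1 (-1.26 ± 0.33) and Gm23971 (-1.61 ± 0.32) were lower, where 22.4% of features were called higher and 22.1% lower. Rnu1a1 averaged 4400 ± 2235 CPM in sperm and 12064 ± 7007 CPM in cauda, the opposite order to U3.

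Of 7 further non-coding RNAs tested, 6 were higher in sperm than in testis and none was lower (median 2.24), beside 29.9% of all features called higher, 45.9% called lower and a median of -0.52. They included the vault RNA Vaultrc5 (5.30 ± 0.47), the RNase P RNA Rpph1 (4.01 ± 0.45), the Y RNA Rny1 (2.68 ± 0.36) and Rn7sk, the RNA that holds the transcription elongation factor P-TEFb (2.16 ± 0.35). Rmrp (2.24 ± 0.43), already counted in the ribosomal RNA maturation list, was among the 6 as well. Between sperm and cauda only Vaultrc5 was higher in sperm (1.93 ± 0.41), and 2 were lower, Rn7s1 of the signal recognition particle (-1.52 ± 0.44) and Rny3 (-1.85 ± 0.42). Of all features 22.4% were called higher and 22.1% lower there.

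The features most like Rnu3b1 across the 24 group means of log2 CPM were ranked by Pearson's r among 293 tested features, as a description. They were Gm47301, annotated as a microRNA hairpin (r = 0.952), the snRNA gene Gm24407 (0.944), Gm26035 (0.944), Rnu3a (0.935) and the snRNA gene Gm24265 (0.933). Gm47301 averaged 68409 ± 26446 CPM in sperm, 10289 ± 8023 CPM in cauda and 1744 ± 843.1 CPM in testis. Among the 103 other snoRNAs the highest r was 0.909, of Snora24, and the median was -0.28. The groups share tissues, and so do libraries and depth, and no p is given.

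The balance of the 2 U3 features differed between tissues. In libraries with at least 20 counts of Rnu3a and Rnu3b1 together, Rnu3a made up 6.36 to 22% in sperm (13.5 ± 4.81%, SD, n = 19) and 11.7 to 73.1% in cauda (40.3 ± 16.5%, n = 18). It averaged 38.4 ± 8.18% in testis (n = 18), 34 ± 13.6% in caput (n = 4), 32.4 ± 18.6% in liver (n = 11) and 18.2 ± 8.71% in heart (n = 14). Halving changes no share here, since both features are listed 2 times.

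The Rnu3a share was lower in sperm than in 4 of the 5 other tissues. The difference was -26.8 percentage points in sperm minus cauda and -24.8 in sperm minus testis (two-sided permutation tests, adjusted p = 5e-05 for both). It was -18.9 points in sperm minus liver (permutation, adjusted p = 0.00027) and -20.5 in sperm minus caput (exact permutation, adjusted p = 0.000847). In sperm minus heart it was -4.72 points with adjusted p = 0.0946 by permutation. It was -4.73 with adjusted p = 0.05 by permutation at a minimum of 4 counts and -4.57 with adjusted p = 0.204 at a minimum of 40.

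Heart also differed from the other 4 tissues. The difference was 22.1 points in cauda minus heart (permutation, adjusted p = 0.000262), 20.1 in testis minus heart (permutation, adjusted p = 5e-05), 15.8 in caput minus heart (exact permutation, adjusted p = 0.0245) and -14.2 in heart minus liver (permutation, adjusted p = 0.0282). The last was -15.9 points with adjusted p = 0.0534 by permutation at a minimum of 40 counts. The 6 other pairs of the 15 did not pass, with adjusted p of 0.339 or more by permutation.

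**Figure D4:**
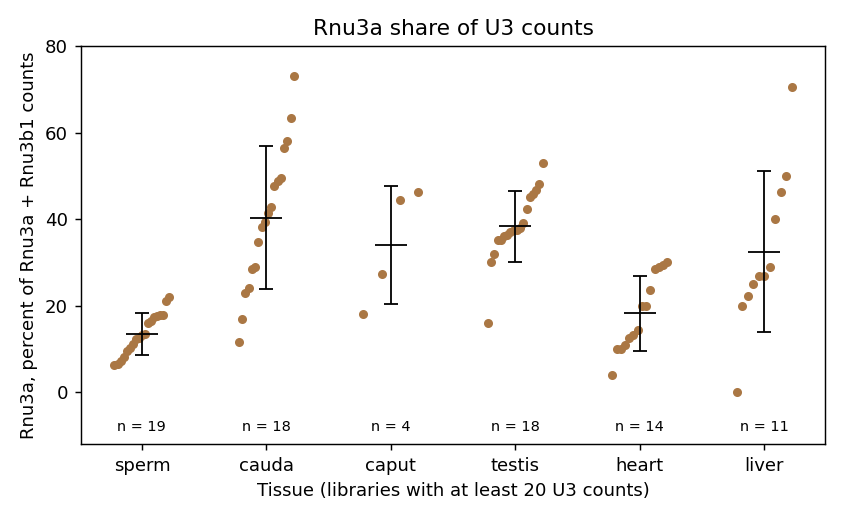
Rnu3a as a percent of Rnu3a plus Rnu3b1 counts in each library with at least 20 such counts, by tissue; points are libraries sorted by value, the dash is the mean, bars are 1 SD and n is the number of libraries. Sperm lies between 6.36 and 22%, while cauda spreads from 11.7 to 73.1%.

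The Rnu3a share varied widely within cauda. On C, 2 cauda libraries had 5817 and 6101 CPM of Rnu3b1 and Rnu3a shares of 11.7 and 16.9%, and the other 3 had 1474 to 1690 CPM and 39.4 to 48.7%. On LP the 4 libraries had 2939 to 4247 CPM and Rnu3a shares of 24 to 34.8%. On CHF, replicate 3 had 7725 CPM and 22.9%, and the other 4 had 690.6 to 2110 CPM and 47.7 to 73.1%. On HF, replicate 4 had 241.9 CPM and 63.3%, and the other 3 had 1610 to 1753 CPM and 38.2 to 58%. Rnu3a itself ran from 1196 to 1929 CPM on LP, 768.9 to 1606 CPM on C, 416.9 to 2420 CPM on HF and 1402 to 2301 CPM on CHF.

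The low-protein diet was compared with its control within each tissue, and the high-fat diet with its own, by edgeR's quasi-likelihood test with 1 fit per tissue. The one tissue in which both U3 features were called was the heart. Rnu3b1 had 464, 127.8, 273.9, 167.2 and 55.3 CPM in the 5 LP hearts and 10.6, 28.5, 9.08, 38.1 and 17.7 CPM in the 5 C hearts. Each LP heart was above each C heart. The log2 fold change was 3.15 ± 0.46 (8.89-fold, adjusted p = 6.82e-11 in edgeR), in a comparison in which 33.5% of 242 features were called higher and 75.2% in either direction. Diet calls needed only an adjusted p under 0.05. It was 2.41 without LP replicate 1, 4.07 without C replicate 4 and 4.16 with only the LP and C libraries in the fit, and was called each time.

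Rnu3a had 56.6, 32, 68.5, 18.6 and 8.51 CPM in the LP hearts and 2.64, 3.17, 1.82, 5.44 and 5.45 CPM in the C hearts. Again the groups did not overlap, and the log2 fold change was 2.80 ± 0.61 (adjusted p = 1.24e-05 in edgeR). In this comparison 75.2% of 242 features were called in either direction, and library depth did not overlap between the diets either. Counts behind these values were small, 8 to 82 for Rnu3b1 and 2 to 10 for Rnu3a in LP hearts, and 8 to 36 and 2 to 8 in C hearts. The counts themselves overlapped between the diets for both Rnu3b1 and Rnu3a, so the gaps in CPM came with the lower depth of LP hearts. In LP replicates 3 and 4 a count of 2, which may stand for 1 read, gave 68.5 and 18.6 CPM.

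Several properties of the libraries moved with diet in the heart. Depth was 29211 to 470061 counts on LP and 735211 to 1467880 counts on C, without overlap. Mitochondrial tRNAs took 36.7 to 87.3% of counts on LP and 74.7 to 78% on C. The numbers in the column names, whose meaning the labels do not give, run from 35 to 39 for LP hearts and from 5 to 9 for C hearts, so diet and any processing set that these numbers may stand for cannot be told apart. Among other snoRNAs 38 of 82 (46.3%) were called higher and 7 (8.54%) lower, with a median log2 fold change of 0.79 beside -0.29 over all features and of -0.07 with their own counts as library size. Of the features called, 44.5% were higher on LP with TMM and 30.3% with that library size. All 7 tested RNAs of the ribosomal RNA maturation list rose (median 2.19), as did all 3 tested capped RNAs (median 4.17). So did all 6 tested RNAs of the list of further non-coding RNAs (median 3.90), which shares Rmrp with the maturation list. Among all 242 features 33.5% were called higher. Rnu3b1 ranked 8th and Rnu3a 11th of 84 snoRNA features.

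Against the other snoRNA counts of the same heart libraries, Rnu3b1 was higher on LP too. Its share was 4.14, 1.15, 3.7, 0.792 and 0.696% in LP hearts and 0.145, 0.456, 0.238, 0.667 and 0.378% in C hearts, again without overlap. The log2 ratio differed by 2.27, with p = 0.00794 in a two-sided exact permutation test, the smallest that 5 against 5 libraries can give, and 0.0476 after adjustment over 12 diet comparisons. With only named snoRNAs as the rest it was 1.92 with adjusted p = 0.114 by exact permutation. The call was also lost without LP replicate 1 (1.93), LP replicate 3 (1.95) or any 1 of the 5 C libraries (1.99 to 2.52), with adjusted p of 0.0952 to 0.127 by exact permutation.

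In liver, Rnu3b1 had 479.5, 386.4, 177.9, 98.4 and 258.6 CPM on LP and 129.8, 82.8, 66.9 and 47 CPM on C. The lowest LP library lay below the highest C library, and the other 4 LP libraries lay above all C libraries. The log2 fold change was 1.93 ± 0.66 (3.82-fold, adjusted p = 0.0228 in edgeR), in a comparison in which 9.76% of 205 features were called higher and 35.6% in either direction. Scaled by total counts (1.77, adjusted p = 0.055), without the filter on low counts (1.63, adjusted p = 0.0985) or with the replicate block (1.87, adjusted p = 0.0791) it was no longer called in edgeR. It was also lost without C replicate 2 (2.05), C replicate 3 (1.99) or C replicate 4 (1.89).

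The share of Rnu3b1 among liver snoRNA counts was 0.527, 0.714, 0.424, 0.542 and 0.641% on LP and 0.148, 0.256, 0.144 and 0.22% on C, without overlap. The log2 ratio differed by 1.58 (two-sided exact permutation p = 0.00794, the smallest possible, adjusted p = 0.0476), and with named snoRNAs only by 1.74 (adjusted p = 0.0952 by exact permutation). Without any 1 of the 9 libraries it was 1.46 to 1.73, and the adjusted p of 0.107 to 0.114 by exact permutation no longer passed in these smaller groups. Mitochondrial tRNAs took 52.5 to 78% of counts in LP livers and 21.7 to 28.6% in C livers, and the numbers in the column names run from 48 to 52 for LP and from 1 to 4 for C. The part of these in the result was not tested. Rnu3a did not pass in liver (0.73 ± 0.80, adjusted p = 0.529 in edgeR), with 32.8 to 159.8 CPM on LP and 17.3 to 311.5 CPM on C. Among other liver snoRNAs edgeR called 12 of 82 (14.6%) higher, with a median of 0.51.

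No LP difference was called in sperm, cauda or testis. Rnu3b1 had 4229 to 47581 CPM (median 21444) in sperm on LP and 7770 to 27850 CPM (median 9348) on C, and the log2 fold change was 0.48 ± 0.67. In cauda, with 2939 to 4247 CPM on LP (mean 3654) and 1474 to 6101 CPM on C (mean 3324), it was -0.30 ± 0.68 with TMM but 0.14 with total counts, and the log2 ratio to other snoRNA counts differed by 0.59 (exact permutation, adjusted p = 0.786). In testis, with 164.3 to 1596 CPM on LP and 172.8 to 933 CPM on C, it was 0.26 ± 0.44. Rnu3a differed by -0.25 ± 0.62 in sperm, 0.24 ± 0.41 in cauda and 0.30 ± 0.41 in testis. In these 3 comparisons edgeR called 0 features of any kind. At an unadjusted p under 0.05 there were 0 of 180 features in sperm, 45 of 218 in cauda and 40 of 447 in testis, and DESeq2 called 0, 16 and 0.

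Caput could not be tested for diet in edgeR, because neither U3 feature passed the filter on low counts there. Rnu3b1 was at 0 in 3 of 5 LP libraries, with 367.8 and 370.3 CPM in the other 2, and had 186.4 to 294.6 CPM in the 5 C libraries. These LP libraries held 912 to 16203 counts, against 13726 to 85848 on C. In the 3 libraries at 0 a count of 3 would be 224 to 3289 CPM, which is too low a limit if U3 reads were counted doubly. Of the features that were tested in caput, 41.4% were called in LP against C and 0.69% in HF against CHF. In the log2 ratio to other snoRNA counts LP exceeded C by 0.41, with p = 0.762 in an exact permutation test. Its sign rested on LP replicate 3, a library of 912 counts with 24 snoRNA counts and U3 at 0, whose ratio of -5.64 is set by the pseudocount: without it the difference was -0.19, and without the libraries under 5000 counts -0.26.

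The high-fat diet gave no call for U3 in any of the 5 tissues tested. In testis Rnu3b1 had 1477, 1383, 537.6 and 2177 CPM on HF and 785.1, 783.8, 657.6, 307.2 and 719 CPM on CHF. Of the HF libraries 3 were above all CHF libraries. The log2 fold change was 1.11 ± 0.48 with an unadjusted p of 0.0291 in edgeR and an adjusted p of 0.713. In cauda Rnu3b1 had 1753, 1610, 1688 and 241.9 CPM on HF and 1852, 2110, 7725, 690.6 and 1088 CPM on CHF, a difference of -1.22 ± 0.70 with adjusted p = 0.622 in edgeR.

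In sperm (-0.11 ± 0.71) and heart (0.17 ± 0.48) the HF difference of Rnu3b1 was smaller than its standard error. In liver Rnu3b1 had 102.1, 43.9, 0 and 388.9 CPM on HF and 361.3, 666.1, 318.5 and 222.4 CPM on CHF. The HF library at 0 held only 827 counts, and the other liver HF libraries held 51432 to 274137. These CHF values came from only 8, 10, 2 and 2 counts of Rnu3b1, in liver libraries of 6279 to 22145 counts. The log2 fold change there was 0.24 ± 0.75 with TMM, against the order of the CPM means, in a comparison in which the median of all features was 1.06. It was -1.30 with total counts, -0.96 with all table rows and -0.91 with other snoRNA counts as library size, none of them called, so its direction depended on the scaling. For Rnu3a the 5 differences lay between -1.54 ± 1.10 in liver and 0.77 ± 0.46 in testis. edgeR called 0 features in sperm, cauda and testis, where 6, 18 and 19 had an unadjusted p under 0.05 and DESeq2 called 0, 0 and 2. It called 1.24% of features in heart and 2.93% in liver. In the ratio to other snoRNA counts, liver was lower on HF by -0.86 (exact permutation p = 0.0286, adjusted p = 0.114). That p is the smallest that 4 against 4 libraries can give, and no other tissue had an unadjusted p under 0.05. The liver ratios did not overlap, but this rested on the pseudocounts, which also set the ratio of the HF library at 0. The shares of Rnu3b1 among snoRNA counts did overlap, with 0.409, 0.289, 0 and 0.277% on HF and 0.517, 0.94, 0.401 and 0.35% on CHF.

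**Figure D5:**
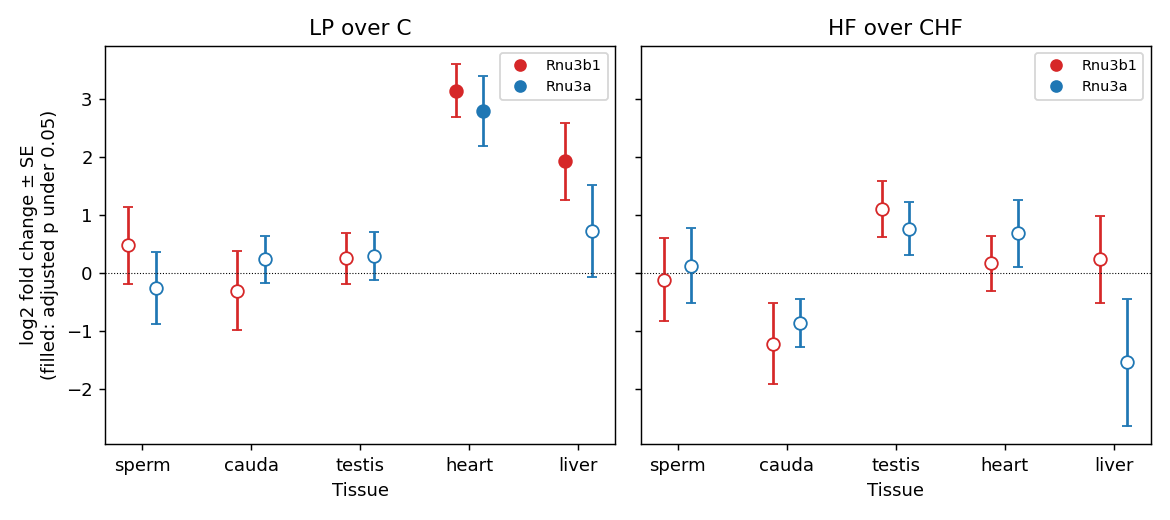
Log2 fold change of LP over C (left) and HF over CHF (right) for Rnu3b1 (red) and Rnu3a (blue) in each tissue tested, from edgeR fits per tissue, with bars of 1 SE; filled points have an adjusted p under 0.05. The filled points are both U3 features in heart and Rnu3b1 in liver, all on LP.

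Whether the LP minus C difference varied between tissues was tested directly, by an F test of the tissue by diet terms over all 6 tissues. In each of these tissues the numbers in the column names form separate runs for LP and C. Diet and these numbers therefore cannot be told apart in any of them. The difference varied for Rnu3b1 (F = 3.56, adjusted p = 0.0229 in edgeR) and for Rnu3a (F = 3.50, adjusted p = 0.0249 in edgeR), where 35.9% of 410 features were called. Without the filter on low counts the value for Rnu3a was 1.67 (adjusted p = 0.361). For HF against CHF neither was called (Rnu3b1 F = 1.33, adjusted p = 0.701; Rnu3a F = 1.60, adjusted p = 0.585 in edgeR), where 3.17% of features were.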

How the data were processed

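The authors deposited raw counts per annotated RNA for 111 libraries in 1 table. The submitters' processing notes name the tools cutadapt and DESeq2 and the build mm10, without versions; no source used here gives the aligner or counter. Sample titles gave each library's group and number. Rows that list the same reads (summed difference under 5%, at least 50 counts), aliases of mitochondrial tRNAs and 5S copies were collapsed to the most abundant, leaving 1042 of 1268 rows and 51% of counts.

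Tests used edgeR 4.0.16 (quasi-likelihood, robust, TMM, filterByExpr) in R 4.3.3, with Benjamini-Hochberg adjustment over all features of a contrast, and were tested on simulated data; shares used permutation tests in Python 3.11.15. The ratio to other snoRNAs added 0.5 to U3 and 1 to the rest. DESeq2 1.42.0, other scalings, filters and sample sets were alternatives. Genes named beyond U3 were the 5 most correlated features, the 5 most abundant other snoRNAs and 3 lists of RNAs. Members and lists were chosen with earlier results of these data known. No pairing was assumed, because no comparison had a correlation of deviations over 0.1 in every pair of same-numbered libraries. This strict rule cannot show that pairing was absent. In HF against CHF all pairs were above 0 in cauda (0.0668 to 0.396) and in liver (0.0845 to 0.219). In all other comparisons the lowest correlation was below 0. No 2 libraries of a group had the same counts (smallest chi-square per degree of freedom 1.54 over 204 pairs). Limits of 3 counts cover counting error only and make no allowance for doubly counted reads.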

Additional observations from a re-analysis of the deposited data

Results flagged for a closer look

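Single libraries stood apart from their group in 10 of 72 sets tested (24 groups, 3 measures), where chance flags about 1 in 20 groups. For Rnu3b1 in CPM these were cauda on HF replicate 4, lowest with 241.9 against 1610 to 1753 in the others, which was also the deepest cauda library (628483 counts), cauda on CHF replicate 3, highest with 7725 in 12169 counts, testis on C replicate 3, highest with 933, testis on CHF replicate 4, lowest with 307.2, and heart on HF replicate 4, lowest with 25.5 against 85.5 to 89.3. For Rnu3a they were sperm on CHF replicate 5, highest with 9079 CPM, and liver on C replicate 1, highest with 311.5 CPM. As a share of snoRNA counts, Rnu3b1 was highest in sperm on C replicate 3 with 45.7%, lowest in cauda on HF replicate 4 with 1.09%, and highest in cauda on CHF replicate 3 with 15%.

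The LP minus C difference varied between the 6 tissues, with F = 3.56 for Rnu3b1 (adjusted p = 0.0229) and F = 3.50 for Rnu3a (adjusted p = 0.0249) in edgeR. In the same test 35.9% of 410 features were called. Without the filter on low counts Rnu3a was not called (F = 1.67, adjusted p = 0.361 in edgeR). The numbers in the column names form separate runs for LP and C in each of the 6 tissues. Diet and these numbers therefore cannot be told apart in any of them.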

How the results depend on the processing

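The 9 tissue calls for Rnu3b1 and its heart LP call were kept under all alternatives run. Values below are log2 fold changes unless named otherwise, and for reversals the cause was not tested. Among testis, heart, liver and caput the Rnu3b1 pairs moved. Caput minus testis (-0.81) was called with RLE factors (-1.91), total counts (-1.72), no filter (-1.20) and U3 counts halved (-1.13). Caput minus heart (-0.79) was 0.04 with RLE, 1.50 with total counts, -1.54 with other snoRNA counts as library size and 0.61 in control diets only, and caput minus liver (-0.50) was 0.12 with total counts and 0.51 in control diets. Testis minus heart (0.01) was 1.95 with RLE, 3.21 with total counts, -0.90 with snoRNA library size, -0.16 with DESeq2 and 1.14 in control diets, and testis minus liver (0.30) was 1.43 with RLE and 1.83 with total counts. Heart minus liver (0.29) was -0.52 with RLE, -1.38 with total counts, 1.07 with snoRNA library size, -0.10 in control diets, -0.16 without shallow libraries and -0.09 with U3 halved. For Rnu3a, caput minus heart (0.92) was -0.02 with snoRNA library size but called under 8 settings (1.08 to 3.15) and without replicate 1, 2 or 3, heart minus liver (-0.96) was called under 8 settings (-2.63 to -1.03) and without replicate 2 or 4, and caput minus liver (-0.04) was 0.21 with RLE, 0.51 with total counts, 0.01 without filter, 0.04 with DESeq2, 0.00 in control diets, 0.22 with all entries, 0.05 at a 20% difference limit and 0.02 without shallow libraries.

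Among diet effects of Rnu3b1 that were not called, HF in sperm was 0.42 with the replicate block, LP in cauda 0.14 with total counts and 0.16 without filter, LP in testis -0.07 with snoRNA library size, HF in heart -0.13 with snoRNA library size, -0.07 without filter, -0.08 with DESeq2 and -0.10 with all entries, and HF in liver -0.25 with RLE, -1.30 with total counts, -0.91 with snoRNA library size, -0.76 without filter, -0.01 with DESeq2 and -0.96 with all entries. For Rnu3a, HF in sperm was -0.03 with RLE, -0.15 with total counts, -0.26 with snoRNA library size and -0.02 with all entries, and LP in testis -0.06 with snoRNA library size. Liver LP lost its call with total counts (1.77), no filter (1.63) and the replicate block (1.87). In the ratio to other snoRNAs, heart minus liver was 0.68 with counts halved, LP in caput -0.26 without shallow libraries, and with named snoRNAs only LP was 1.92 in heart and 1.74 in liver. The Rnu3a share of heart minus liver was -15.9 points at a minimum of 40 counts, adjusted p 0.0534. Halving counts, the ratios without 1 replicate and both other minimums were chosen after the data were seen.

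With 1 replicate left out at a time, the Rnu3b1 values ran from -1.07 to -0.66 in caput minus testis, -0.04 to 0.41 in testis minus heart, -0.08 to 0.41 in heart minus liver, -0.02 to 0.87 for LP in sperm, -0.40 to 0.24 for HF in sperm, -0.51 to 0.18 for LP in cauda, -0.25 to 0.64 for LP in testis, -0.10 to 0.58 for HF in heart, 1.89 to 2.43 for LP in liver and -1.04 to 0.53 for HF in liver. For Rnu3a they ran from -0.57 to 0.53 in caput minus liver, -0.19 to 0.54 for HF in sperm and -0.11 to 0.54 for LP in testis. The ratio to other snoRNAs ran from -0.19 to 1.30 for LP in caput, -0.33 to 0.08 for LP in testis, 1.93 to 2.58 for LP in heart, -0.29 to 0.22 for HF in heart and 1.46 to 1.73 for LP in liver.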
